A study of Homo sapiens with 6 samples.

Results

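The 36 genes described here encode transcription factors and cofactors of blood cell formation, among 20037 protein-coding RefSeq genes on chromosomes 1 to 22, X and Y. They were listed by name, by a rule that used no measured value, but with earlier results of these data known. They were placed in 3 groups by the cells they are best known for. The stem cell group held 16 genes: GATA2, TAL1, LMO2, LYL1, LDB1, RUNX1, CBFB, MYB, ETV6, ERG, FLI1, MEIS1, MECOM, PRDM16, HHEX and HLF. The erythroid-megakaryocyte group held 6, namely GATA1, KLF1, GFI1B, NFE2, ZFPM1 and BCL11A, and the myeloid-lymphoid group held 14, namely SPI1, CEBPA, CEBPB, CEBPE, GFI1, IKZF1, IKZF2, IRF4, IRF8, RUNX2, RUNX3, KLF2, ELF1 and EGR1. A peak was counted for a gene when it lay inside the gene body or within 3 kb of it.

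Binding was mapped by ChIP-seq, in which DNA fragments cross-linked to a protein are pulled down with an antibody and sequenced, in K562, a human cell line from a chronic myelogenous leukemia. Clones 4 and 5, stable K562 lines that each overexpressed both Flag-PLAG1-S (a Flag-tagged short form of the zinc finger protein PLAG1) and USF2, each gave an anti-Flag library, an anti-USF2 library and an input library. The labels give a depth, in units of 1e6 reads of 50 bp, of 42.5 per immunoprecipitate and 55 per input. All 6 libraries therefore carried both overexpressed proteins, no library came from unmodified K562 cells, and no expression was measured that could check the cells against their markers.

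Blood stem cells are kept by a set of factors that bind together, among them the GATA2, TAL1, LMO2, RUNX1, ERG and FLI1 proteins. Replacement of GATA2 by GATA1, with its cofactor ZFPM1, accompanies the erythroid and megakaryocytic fates, whereas the SPI1 and C/EBP proteins act in the myeloid fate and the IKZF and IRF proteins in lymphoid cells. USF2 is a basic helix-loop-helix leucine zipper protein that recognizes the E-box CACGTG, and PLAG1 recognizes a G-rich core followed after a short spacer by a second G-rich cluster.

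For PLAG1-S the deposited lists held 37574 peaks in clone 4 and 29889 in clone 5, and for USF2 they held 9338 and 4369. Peaks that overlapped between the clones are called reproducible here and carry their clone 4 coordinates (21469 for PLAG1-S, 2409 for USF2). Those of PLAG1-S with an edge no more than 100 bp from a reproducible USF2 peak, 2108 in all, are called co-bound. The strength of a peak is given as fold enrichment, the number of fragments at its summit over the local background, each increased by 1, for clone 4 first and clone 5 second. The lists hold values only where a peak was called, so no gene was tested and each value is set beside its counterpart in the other clone. The 95% Poisson intervals given for fragments cover counting error only.

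Both factors lay at a larger share of these genes than of all protein-coding genes. A reproducible PLAG1-S peak lay at 28 of the 36 genes (77.8%), against 52.0% of all protein-coding genes, and a reproducible USF2 peak at 7 (19.4%), against 10.3%. Co-bound peaks lay at 6 genes (16.7%), against 9.98% of protein-coding genes: LYL1, GFI1B, KLF1, ZFPM1, CEBPB and EGR1. Among genes that had a PLAG1-S peak, a co-bound peak was present at 6 of 28 (21.4%) here and at 19.2% of all, so on that base the share was near the background. In the separate lists, PLAG1-S lay at 30 genes in clone 4 (64.0% of all genes) and 29 in clone 5 (58.3%), and USF2 at 13 (25.3%) and 8 (13.6%). By gene length, 9 of the 12 genes of 100 kb or more had PLAG1-S (55.3% of all genes of that length), as did 11 of 14 between 10 and 100 kb (56.6%) and 8 of 10 under 10 kb (41.1%). The USF2 peaks lay at 4 of the 10 shortest genes (9.13% of all genes under 10 kb), 3 of the 14 of middle length (11.1%) and 0 of the 12 longest (9.89%), and the co-bound peaks at 4 (8.69%), 2 (10.7%) and 0 (9.71%). Within 3 kb of either gene end, PLAG1-S lay at 20 genes (45.4% of all protein-coding genes), USF2 at 5 (8.84%) and co-bound peaks at 5 (8.6%).

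**Figure D1:**
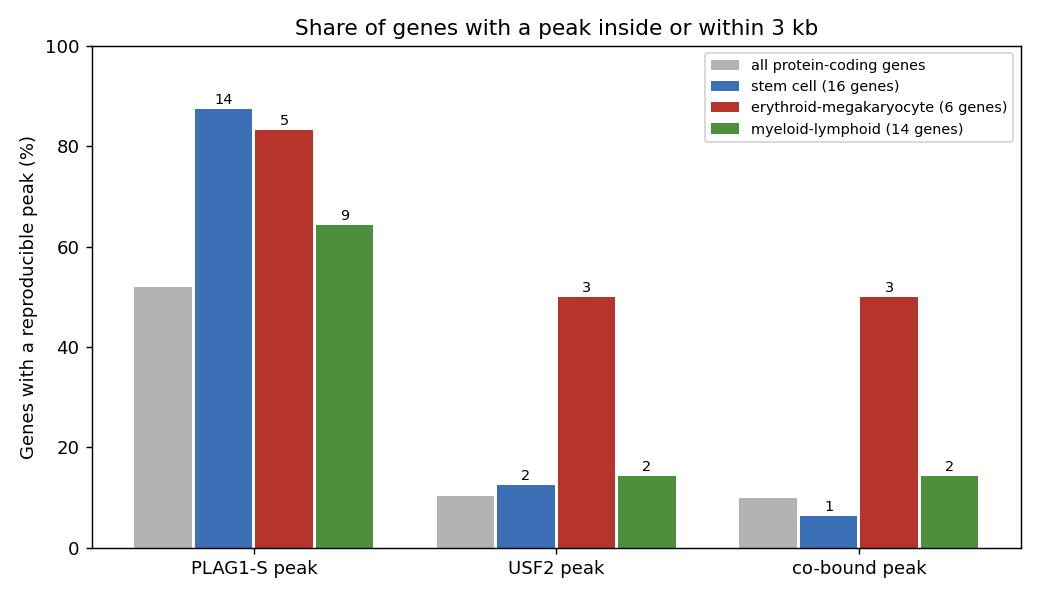
Bars give the percentage of genes with a reproducible PLAG1-S, USF2 or co-bound peak inside the gene or within 3 kb, for all protein-coding genes (gray) and for the 3 groups, with the number of genes above each colored bar. PLAG1-S was present at 14 of 16 stem cell, 5 of 6 erythroid-megakaryocyte and 9 of 14 myeloid-lymphoid genes, and co-bound peaks at 1, 3 and 2.

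The 3 groups had PLAG1-S peaks at 14 of 16 stem cell genes (87.5%), 5 of 6 erythroid-megakaryocyte genes (83.3%) and 9 of 14 myeloid-lymphoid genes (64.3%), against 52.0% of protein-coding genes. The groups also differed in gene length, with medians of 66.07, 28.4 and 21.57 kb in that order. Co-bound peaks lay at 1, 3 and 2 genes, or 6.25%, 50.0% and 14.3%, against 9.98% of protein-coding genes. The erythroid-megakaryocyte genes held 31 PLAG1-S peaks, or 10.6 per 100 kb of gene and flank against 1.42 over all protein-coding genes, but 22 of these lay at ZFPM1. The stem cell genes held 43 peaks (1.81 per 100 kb, 14 of them at PRDM16) and the myeloid-lymphoid genes 17 (2.00 per 100 kb). The strongest PLAG1-S peak of a gene had a median fold in clone 4 of 7.77 in the stem cell group, 14.0 in the erythroid-megakaryocyte group and 7.95 in the myeloid-lymphoid group, and the ranges of the groups overlapped, from 3.30 to 25.7, from 5.26 to 20.1 and from 4.33 to 31.8. Genes are not replicates of a group, and 5 stem cell genes (GATA2, TAL1, LMO2, LDB1 and FLI1) also act in erythroid or megakaryocytic cells. When these were counted as erythroid-megakaryocyte, that group had PLAG1-S at 10 of 11 genes and co-bound peaks at 3, and the stem cell group had PLAG1-S at 9 of 11 and co-bound peaks at 1.

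The 91 PLAG1-S peaks at the 28 genes had a median fold of 5.80 in clone 4 and 5.99 in clone 5, against a clone 4 median of 6.39 for all 21469. A fold of 10 or more was reached by 15 of them (16.5%), against 23.1% of all reproducible PLAG1-S peaks. The summit lay within 1 kb of a gene start for 25 peaks, at 17 of the 30 genes with a start in the promoter table (40.4% of all such genes), and 53 peaks lay deeper inside a gene. The USF2 summit lay within 1 kb of the start of 3 of the 30 genes (7.42% of all) and the summit of a co-bound peak at 4 (7.24%). No USF2 peak of either clone met 75 of the 91, 8 met a USF2 peak in 1 clone only, and 8 were co-bound. Over the whole lists 2108 of the 21469 were co-bound, so counted by peak the co-bound share at these genes was not above the background. The other 2 counts were not computed for all peaks. The clone 5 fold divided by the clone 4 fold had a median of 0.952 and ranged from 0.517 to 2.18, against a median of 0.887 for all reproducible PLAG1-S peaks. The highest ratio set a clone 4 peak of 2.74 fold at ZFPM1 against a clone 5 peak of 5.99. That clone 5 peak also overlapped a stronger clone 4 peak (4.66), so this ratio does not compare a single site between the clones. ZFPM1 and PRDM16 together held 39.6% of the peaks. Without them 55 remained, at 1.80 per 100 kb against 1.42 over all protein-coding genes, and the median fold was 5.98. K562 cells carry regions in extra copies, and the local background under these peaks ran from 2.80 to 5.90 fragments in clone 4, with a median of 3.75 against 3.76 for all reproducible PLAG1-S peaks.

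**Figure D2:**
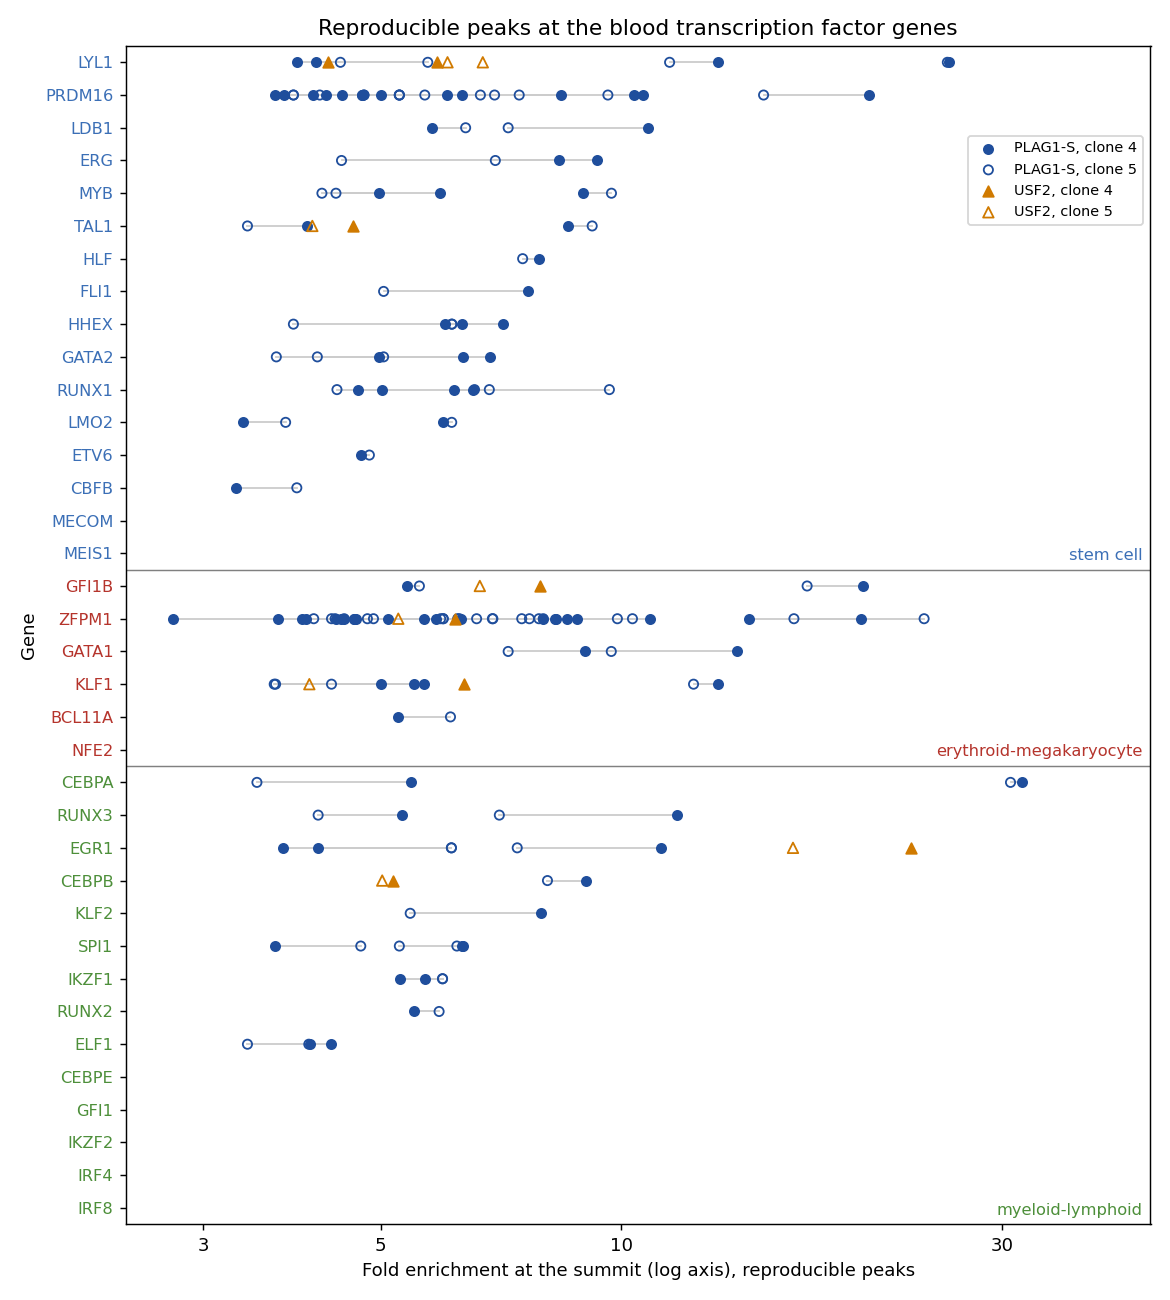
Each point is 1 reproducible peak at the gene named on the vertical axis, placed by its fold enrichment on a logarithmic horizontal axis, with circles for PLAG1-S, triangles for USF2, filled symbols for clone 4, open symbols for clone 5 and a gray line joining the 2 clones of a PLAG1-S peak. CEBPA (31.8 and 30.7) and LYL1 (25.7 and 25.6) lie farthest to the right for PLAG1-S and EGR1 (23.1 and 16.4) for USF2, and 8 genes have no point.

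Promoter sequences are shown for the genes whose start met a co-bound peak (GFI1B, CEBPB, EGR1 and LYL1) and, chosen after their values were seen, for CEBPA, which had the strongest PLAG1-S peak, and for LDB1 and IKZF1, which had the strongest PLAG1-S summits inside this window in their groups. Each is the 250 bases before the gene start in RefSeq's GRCh38.p14, written 5′ to 3′ along the strand of the gene, with matches to the bipartite PLAG1 consensus in capitals. The windows are chr9:132945281-132945530 (plus strand) for GFI1B, chr20:50190333-50190582 (plus) for CEBPB, chr5:138465229-138465478 (plus) for EGR1, chr19:13102859-13103108 (minus) for LYL1, chr19:33302535-33302784 (minus) for CEBPA, chr10:102115003-102115252 (minus) for LDB1 and chr7:50304466-50304715 (plus) for IKZF1.
GFI1B: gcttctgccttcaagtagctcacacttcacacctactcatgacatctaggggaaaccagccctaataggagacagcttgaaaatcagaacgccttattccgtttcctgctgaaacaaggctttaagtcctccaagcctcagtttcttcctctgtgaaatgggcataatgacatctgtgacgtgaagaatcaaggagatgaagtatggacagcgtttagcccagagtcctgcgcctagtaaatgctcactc
CEBPB: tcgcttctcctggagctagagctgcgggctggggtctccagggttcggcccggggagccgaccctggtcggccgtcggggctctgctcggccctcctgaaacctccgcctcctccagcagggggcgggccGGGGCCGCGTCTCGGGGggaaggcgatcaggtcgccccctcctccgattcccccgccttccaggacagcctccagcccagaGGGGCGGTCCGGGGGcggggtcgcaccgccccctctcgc
EGR1: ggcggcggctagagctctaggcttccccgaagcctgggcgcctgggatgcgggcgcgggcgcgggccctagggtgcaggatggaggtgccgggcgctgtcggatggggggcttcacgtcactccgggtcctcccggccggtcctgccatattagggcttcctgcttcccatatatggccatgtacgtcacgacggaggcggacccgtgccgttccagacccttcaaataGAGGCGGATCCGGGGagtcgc
LYL1: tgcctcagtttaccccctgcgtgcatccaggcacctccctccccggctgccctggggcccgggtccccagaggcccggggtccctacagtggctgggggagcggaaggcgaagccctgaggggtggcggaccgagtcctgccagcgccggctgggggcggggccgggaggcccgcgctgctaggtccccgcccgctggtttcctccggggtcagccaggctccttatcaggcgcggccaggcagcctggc
CEBPA: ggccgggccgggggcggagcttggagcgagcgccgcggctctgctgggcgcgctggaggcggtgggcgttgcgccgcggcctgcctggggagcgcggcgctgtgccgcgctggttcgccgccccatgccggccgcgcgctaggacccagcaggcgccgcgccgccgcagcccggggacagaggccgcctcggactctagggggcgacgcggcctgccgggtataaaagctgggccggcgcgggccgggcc
LDB1: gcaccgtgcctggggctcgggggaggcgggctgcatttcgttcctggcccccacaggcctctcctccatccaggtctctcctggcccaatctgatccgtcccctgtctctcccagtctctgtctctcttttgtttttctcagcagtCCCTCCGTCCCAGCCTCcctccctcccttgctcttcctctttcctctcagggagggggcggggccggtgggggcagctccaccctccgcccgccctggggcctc
IKZF1: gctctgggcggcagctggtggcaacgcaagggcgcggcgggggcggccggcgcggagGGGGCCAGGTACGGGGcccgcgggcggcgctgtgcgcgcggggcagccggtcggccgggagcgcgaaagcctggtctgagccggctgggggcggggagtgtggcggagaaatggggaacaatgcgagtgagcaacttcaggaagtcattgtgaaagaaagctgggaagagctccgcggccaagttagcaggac
The consensus was found in CEBPB at bases -120 to -104 and -39 to -25 from the start, in EGR1 at -21 to -7, in IKZF1 at -193 to -178 and, on the opposite strand, in LDB1 at -104 to -88. The PLAG1-S peaks of clone 4 covered all 250 bases at LYL1, CEBPA and IKZF1, 179 at EGR1, 147 at LDB1, 48 at CEBPB and 11 at GFI1B. The windows of LYL1 and CEBPA, with the strongest start peaks, and of GFI1B held no match to the consensus. The clone 4 summits of these peaks lay outside the windows, at -368, -262 and -583 bp in that order, so the sequence at the summits was not searched. Neither CACGTG nor its reverse complement, which is the same letters, occurred in any of the 30 windows available for these genes, whereas 7.84% of 15843 protein-coding promoters and 19.6% of those met by a PLAG1-S peak held it. The PLAG1 consensus occurred on either strand in 14 of the 30 windows (46.7%), against 30.3% of all. It was in 10 of the 16 windows met by a PLAG1-S peak (62.5%, against 41.4% of all such windows) and in 4 of the 14 others (28.6%, against 25.9%). Windows met by a peak also had more G and C, with a median of 72.8% against 58.4% in the others here and 69.2% against 58.8% over all promoters. A match is a run of letters, not a site of binding, and a window met by a peak need not hold its summit. What part GC content had in these shares was not tested.

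Of the stem cell genes, LYL1, a basic helix-loop-helix relative of TAL1, had the strongest binding of both factors together. Its start peak, chr19:13102424-13103474 with the summit 368 bp before the start, had a PLAG1-S fold of 25.7 and 25.6, from 119 fragments (98.6 to 142) and 112 (92.2 to 135). The USF2 fold there was 5.88 and 6.71, and the summits of the 2 factors lay 6 bp apart in clone 4. PLAG1-S and USF2 values of both clones thus differed by less than their counting error at this site, which ranked in the top 1.63% and 1.13% of the PLAG1-S lists. A co-bound peak past the 3′ end, chr19:13096320-13096950, had PLAG1-S folds of 13.2 and 11.5 and USF2 folds of 4.29 and 6.06, with summits 50 bp apart, and its nearest gene end was that of NFIX, 2048 bp away. The start peak also fell in the window of TRMT1, so neither can be assigned to LYL1 alone. PLAG1-S peaks of 4.15 and 5.73 and of 3.93 and 4.45 without USF2 completed the 4 at LYL1. They also fell in the window of NFIX, whose end was the nearest, 595 and 2959 bp away.

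PRDM16, a zinc finger protein needed for stem cell maintenance, had 14 PLAG1-S peaks over 369.42 kb, and 31 protein-coding genes, itself included, had as many or more. All lay inside the gene, and 8 were nearest to an end of LOC124903828, a gene model within it. The strongest, chr1:3423261-3423770, had folds of 20.4 and 15.1 from 79 and 55 fragments, and a USF2 peak of 6.12 fold lay 12 bp from its summit in clone 4 but in clone 5 no USF2 peak met it. A USF2 peak of 4.26 fold met another of the 14 in clone 5 only. The other 13 PLAG1-S peaks had folds from 3.69 to 10.7 in clone 4.

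LDB1, the adaptor that joins LMO2 to its partners, had a PLAG1-S peak 5 bp before a start with folds of 10.8 and 7.22 (40 and 25 fragments, with intervals of 28.6 to 54.5 and 16.2 to 36.9), and another of 5.80 and 6.39 that lay 280 bp from an end of PPRC1. MYB, a regulator of progenitor proliferation, had start peaks 726 bp upstream (8.97 and 9.73) and 236 bp upstream (4.98 and 4.22) and another peak inside (5.94 and 4.40). The TAL1 start peak had PLAG1-S folds of 8.57 and 9.20, and a weaker one inside had 4.05 and 3.41. TAL1 was also the only gene here with a reproducible USF2 peak that had no reproducible PLAG1-S peak within 100 bp, chr1:47219814-47219965, 12473 bp inside the gene, with USF2 folds of 4.61 and 4.11.

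The ETS family genes differed in where PLAG1-S lay. ERG had 2 peaks deep inside the gene (9.32 and 6.96, 8.35 and 4.47) and FLI1 had 1 (7.64 and 5.04), whereas ETV6 had 1 peak 175 bp before its start (4.72 and 4.84). RUNX1, the DNA-binding subunit of core binding factor, had 4 peaks, of which the strongest lay by an inner start (6.52 and 9.67) and another 84 bp before the outer start (5.02 and 4.41). CBFB, its non-DNA-binding partner, had 1 peak near a gene end (3.30 and 3.93), the weakest top peak of the 28 genes. GATA2 had 3 peaks, all inside the gene between 4142 and 5878 bp from the start, the strongest 6.85 and 4.17. The LIM protein gene LMO2 had 2 inside (5.98 and 6.14, 3.36 and 3.80). Of the homeobox and bZIP genes, HHEX had a pair at its start (7.11 and 6.02 in clone 4, overlapping 1 clone 5 peak of 6.14) and 1 at its 3′ end (6.32 and 3.89), and HLF had 1 at 10 bp from its start (7.89 and 7.53). No USF2 peak of either clone met a PLAG1-S peak of these 9 genes.

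Of the erythroid-megakaryocyte genes, GFI1B, ZFPM1 and KLF1 had co-bound peaks, and GATA1 and BCL11A had PLAG1-S alone. GFI1B encodes a repressor required for erythroid and megakaryocytic maturation. Its co-bound peak, chr9:132944165-132945291, had PLAG1-S folds of 20.1 and 17.1 from 86 and 69 fragments (68.8 to 106 and 53.7 to 87.3) and USF2 folds of 7.92 and 6.66 from 34 and 27 fragments. The summits of the factors were 4 bp apart in clone 4. The summit lay at -583 bp from the start of GFI1B and 430 bp from an end of TSC1, so it can be assigned to either gene. The local background under it was 3.33 fragments in clone 4. A weaker PLAG1-S peak without USF2 lay 28456 bp inside the gene (5.39 and 5.59).

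ZFPM1, the GATA1 cofactor also known as FOG1, had 22 PLAG1-S peaks over 85.26 kb, more than any other of the 36 genes. It was 1 of 8 protein-coding genes with that many or more. The co-bound peak, chr16:88508372-88509548, lay deep inside the gene with PLAG1-S folds of 20.0 and 16.5 (94 and 69 fragments) and USF2 folds of 6.20 and 5.26, with summits 16 bp apart. A stronger peak in clone 5, chr16:88503031-88503549, had PLAG1-S folds of 14.5 and 24.0 from 55 fragments (41.4 to 71.6) and 87 (69.7 to 107). No USF2 peak met it in either clone. Of the 15 peaks with a clone 4 fold of 10 or more at the 36 genes, it alone had the higher fold in clone 5. Choosing peaks by a high clone 4 fold itself favors lower folds in clone 5. Over all reproducible PLAG1-S peaks the clone 5 fold divided by the clone 4 fold had a median of 0.887. In clone 4 alone, USF2 peaks of 3.84 to 4.54 fold met 3 further ZFPM1 peaks. The one of 4.54 fold had its summit 23 bp from that of a PLAG1-S peak (8.80 and 6.90) 595 bp before the start. Other PLAG1-S peaks near the start had folds of 4.63 and 4.81 and of 8.29 and 10.3.

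**Figure D3:**
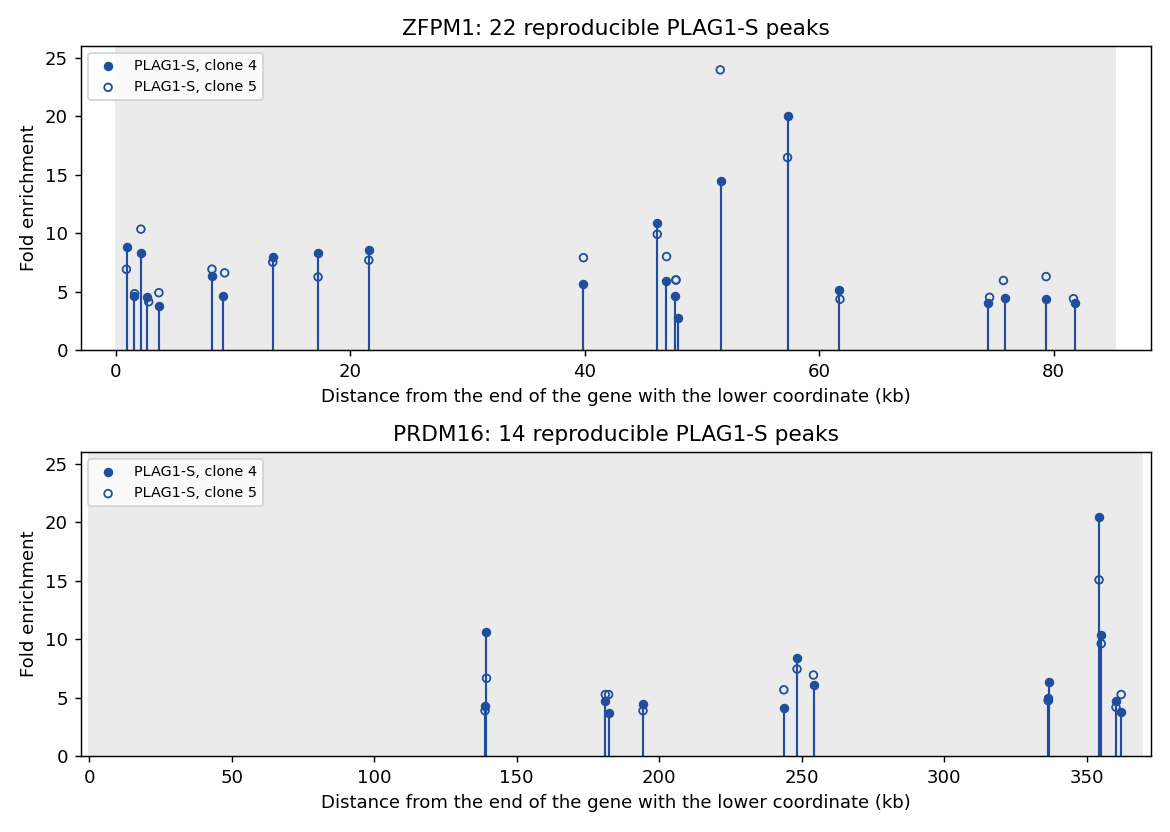
Vertical lines and filled circles give the PLAG1-S fold enrichment of clone 4 at each reproducible peak of ZFPM1 (22 peaks) and PRDM16 (14 peaks) against the distance from the end of the gene with the lower coordinate (kb), open circles give clone 5, and the gene body is gray. In clone 4 the strongest peaks reached 20.0 at ZFPM1 and 20.4 at PRDM16.

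KLF1, the erythroid Krüppel-like activator of adult globin genes, had a co-bound peak of PLAG1-S folds 13.2 and 12.3 and USF2 folds 6.36 and 4.07. This peak, chr19:12884633-12886089, lay 2139 bp inside the gene and 640 bp from its 3′ end, with the summits 98 bp apart. Weaker PLAG1-S peaks lay at the start (5.00 and 3.68, 5.51 and 3.69), and another (5.66 and 4.34) lay 16 bp from an end of DNASE2. GATA1, the lineage regulator, had 2 PLAG1-S peaks with summits 123 and 1099 bp past its 3′ end (14.0 and 7.22, 9.01 and 9.72) and no reproducible peak at its start. PLAG1-S peaks in 1 clone only lay at -131 bp from the start in clone 5 (4.17 fold) and at -1433 bp in clone 4 (5.27). The peak nearest to the 3′ end was 52 fragments (38.8 to 68.2) in clone 4 and 25 (16.2 to 36.9) in clone 5, intervals that did not overlap. BCL11A, the repressor of fetal globin, had 1 peak, 4315 bp inside (5.26 and 6.12).

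**Figure D4:**
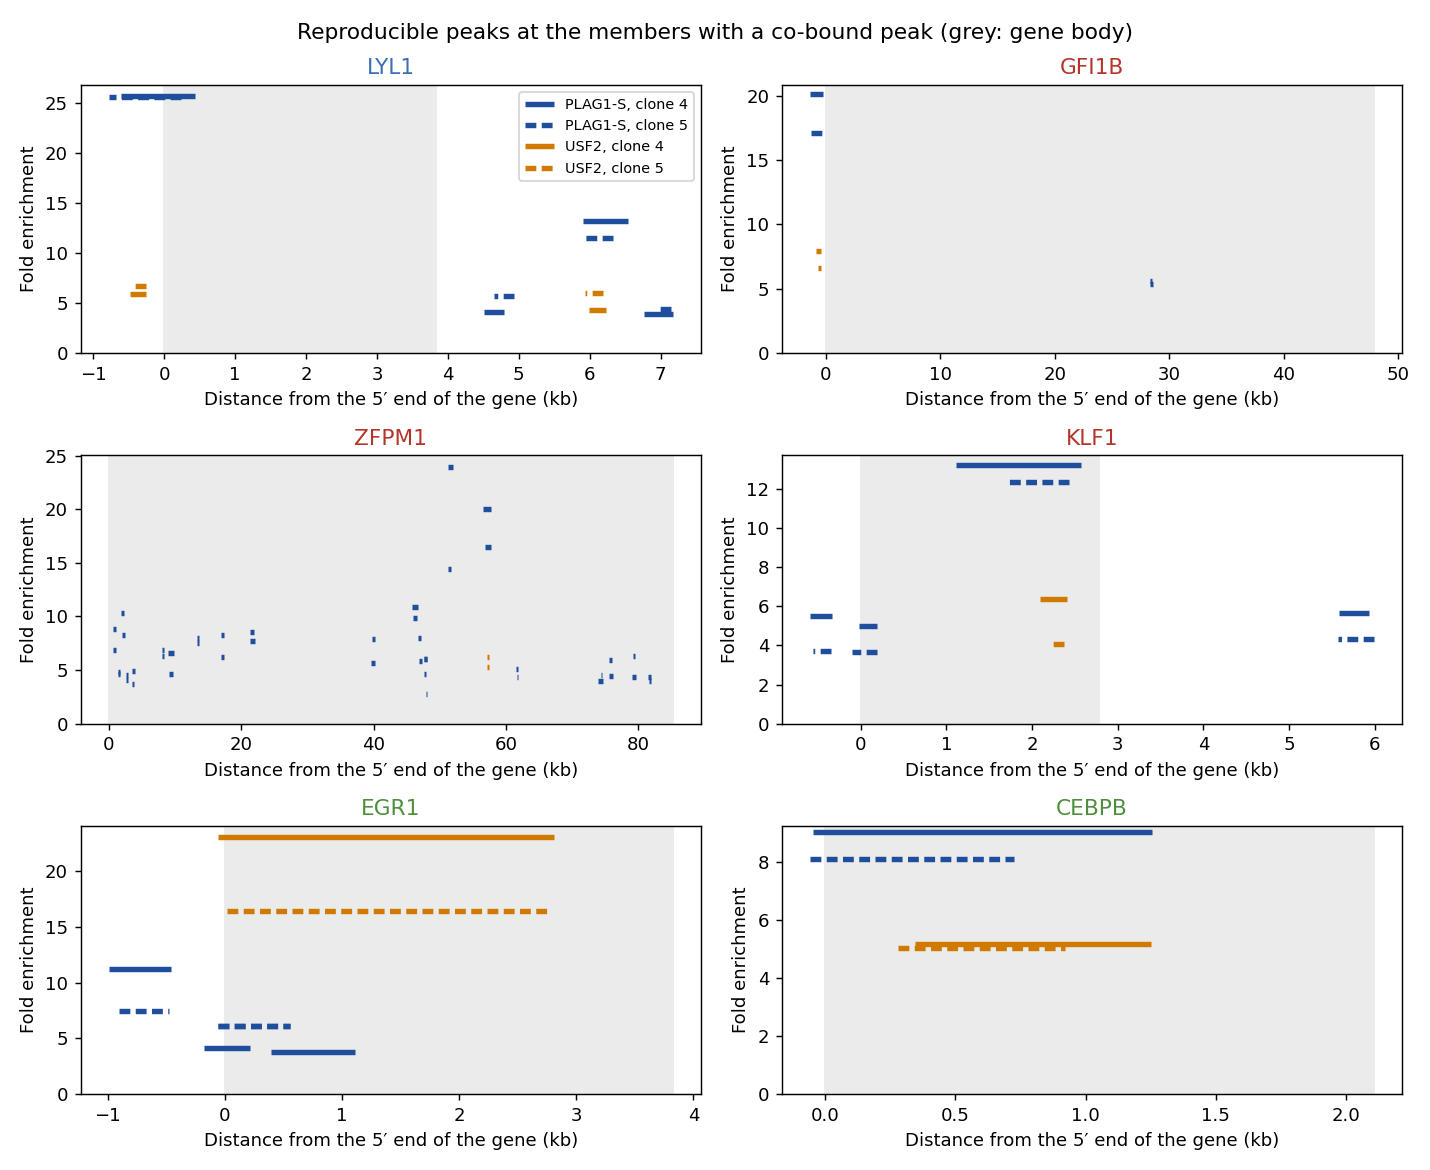
For each gene with a co-bound peak, horizontal lines mark the extent of every reproducible peak as distance from the 5′ end of the gene (kb) and its height as fold enrichment, blue for PLAG1-S, orange for USF2, solid for clone 4 and dashed for clone 5, with the gene body in gray. USF2 lay within PLAG1-S peaks at LYL1, GFI1B, ZFPM1 and KLF1, whereas at EGR1 the USF2 peak, 2868 bp wide in clone 4, extended past the reproducible PLAG1-S peaks.

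Of the myeloid-lymphoid genes, CEBPA, RUNX3 and EGR1 had the strongest PLAG1-S peaks, and CEBPB and EGR1 were co-bound. CEBPA encodes a driver of granulocyte and monocyte differentiation. Its start peak, chr19:33301901-33303519, had folds of 31.8 and 30.7 from 150 fragments (127 to 176) and 137 (115 to 162), in the top 0.740% and 0.572% of the lists, and was the strongest of the 91. USF2 met it in clone 4 only, with a fold of 4.14 from 18 fragments. A second peak 2415 bp upstream had folds of 5.45 and 3.50. RUNX3, a RUNX gene of T cells, had 2 peaks inside, of 11.8 and 7.04 and of 5.32 and 4.18, the first with a USF2 peak of 4.43 in clone 4 only.

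EGR1, a zinc finger gene rapidly induced by growth signals and active in monocyte differentiation, had the only co-bound peaks with a USF2 fold above that of PLAG1-S, although folds from different antibodies do not compare amounts of protein. The USF2 peak, chr5:138465424-138468291, had folds of 23.1 and 16.4 from 107 fragments (87.7 to 129) and 106 (86.8 to 128), so the counts of the clones differed by less than counting error. It was 2868 bp wide in clone 4 and 2776 bp in clone 5, the widest of all 9338 and of all 4369 USF2 peaks, whose medians were 209 and 212 bp. In clone 4 it met 4 PLAG1-S peaks. A pair of them, of 4.18 and 3.77 fold, both overlapped a clone 5 peak of 6.13, the strongest in clone 5 to meet either. The other pair, of 4.06 and 4.18 fold and farther inside the gene, had no counterpart in clone 5. The summits of the reproducible pair were 344 and 191 bp from that of USF2. Another PLAG1-S peak, 710 bp before the start, had folds of 11.2 and 7.41 with no USF2.

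At CEBPB, a C/EBP gene of macrophages and emergency granulopoiesis, the co-bound peak chr20:50190535-50191838 had PLAG1-S folds of 9.04 and 8.09 and USF2 folds of 5.18 and 5.02. The summits were 957 bp apart in clone 4, the PLAG1-S summit 67 bp and the USF2 summit 1024 bp after the start, and the USF2 peaks were 907 and 643 bp wide. In clone 5 the summits lay closer together, at base 50190654 for PLAG1-S and 50190993 for USF2. Another USF2 peak in clone 4 alone (3.85 fold) lay in the same PLAG1-S peak, with its summit 58 bp from that of PLAG1-S. When the summits were required to lie within 100 bp in place of the peak edges, with reproducible peaks of both factors, CEBPB and EGR1 were no longer co-bound, and the 4 genes that remained were LYL1, GFI1B, KLF1 and ZFPM1. KLF2, a regulator of lymphocyte quiescence, had 1 PLAG1-S peak 272 bp before its start (7.95 and 5.45), with USF2 in clone 4 only (4.08).

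The remaining myeloid-lymphoid genes had weaker PLAG1-S peaks and no USF2. SPI1, which encodes the myeloid and B cell factor PU.1, had 3 peaks within 1 kb of its gene ends, the strongest 6.35 and 6.23, and 2 of them also fell in the window of MYBPC3. IKZF1, the lymphoid zinc finger factor Ikaros, had 2 clone 4 peaks by its starts (5.69 and 5.29) that overlapped a single clone 5 peak of 5.98. RUNX2 had 1 peak (5.51 and 5.92) that lay 263 bp from an end of SUPT3H, and ELF1 had 2 (4.33 and 4.07, 4.08 and 3.41) that also fell in the window of WBP4.

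**Figure D5:**
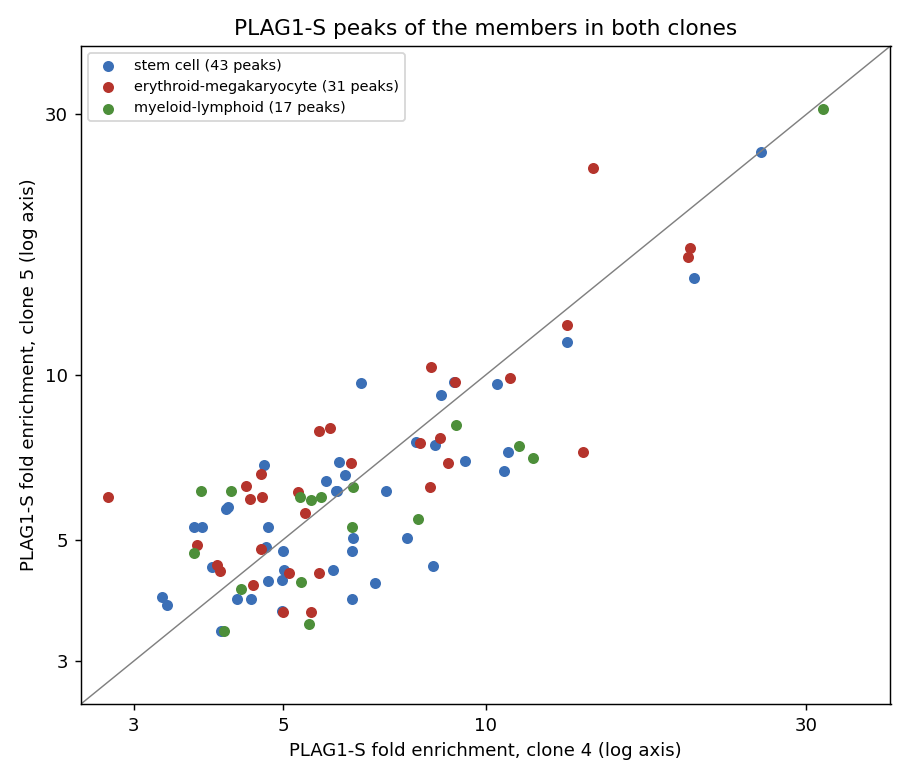
Each of the 91 PLAG1-S peaks is placed by its fold enrichment in clone 4 and clone 5 (both axes logarithmic) and colored by group, and the line marks equal values. The ratio of clone 5 to clone 4 ranged from 0.517 to 2.18, with a median of 0.952. The highest ratio, at ZFPM1, used a clone 5 peak that also overlapped a stronger clone 4 peak.

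No reproducible peak of either factor lay at 8 genes: MEIS1, MECOM, GFI1, IKZF2, IRF4, CEBPE, IRF8 and NFE2. Of these, 5 were myeloid-lymphoid, 2 stem cell and 1 erythroid-megakaryocyte. MEIS1, a HOX cofactor, GFI1, the myeloid paralog of GFI1B, IKZF2 (Helios) and CEBPE, a late granulocyte gene, had no peak in any of the 4 lists. NFE2, the globin locus and platelet factor, had 1 PLAG1-S peak in each clone (4.08 and 3.23) that did not overlap each other. MECOM, the stem cell zinc finger gene also called EVI1, had 2 PLAG1-S peaks (6.59 and 3.21) in clone 4 alone. The interferon regulatory factor genes IRF4 and IRF8, active in B cells and monocytes, each had 1 USF2 peak in clone 4 alone, at -282 bp from the IRF4 start (3.66 fold) and 18287 bp inside IRF8 (3.73), each from 14 fragments (7.65 to 23.5). A peak list gives calls and no count at other places, and the lowest peak in each list had 11 fragments at its summit, so weaker binding at these genes was not detectable here.

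A further list of 24 genes held other members of the same families and complexes that are not among the 36, such as ETS, RUNX partner, LIM complex and small MAF genes. PLAG1-S lay at 22 of these (91.7%, against 52.0% of protein-coding genes), and the strongest peak of a gene had a median clone 4 fold of 10.6. Co-bound peaks lay at 6 (25.0%, against 9.98%). MAFG, which encodes the small MAF partner of NFE2, had PLAG1-S folds of 36.5 and 29.4 and USF2 folds of 19.6 and 12.3. Its relative MAFF had 22.4 and 21.4, with USF2 at 8.94 and 5.14. Among ETS genes, ELF4 had 29.8 and 26.1 with USF2 at 9.48 and 6.96, and ETS2 had 25.7 and 18.7 with USF2 at 4.47 and 3.91. The corepressor gene CBFA2T2 had 10.2 and 8.30 with USF2 at 5.40 and 3.94. SSBP4, which encodes a relative of the single-stranded DNA binding proteins of the LDB1 complex, had 17.8 and 8.79 with USF2 at 4.96 and 4.58, at a site nearest to an end of ISYNA1.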

How the data were processed

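ChIP-seq peak lists of PLAG1-S and USF2 from K562 clones 4 and 5 were analyzed. Per the submitters' processing notes and the study's methods, the authors aligned reads to GRCh38/hg38 with HISAT2 2.0.4 and called peaks per library with MACS2, whose version is not given in the sources used here. The deposited columns were the fold enrichment at the summit, -log10 p-values, -log10 q-values and a score, 10 times the -log10 q-value. Peaks were listed down to a q-value of 0.0099 (clone 4) or 0.00974 (clone 5) in PLAG1-S, but of 0.0494 or 0.0477 in USF2. Clone numbers in the labels pair the libraries, since the same number is the same cell line. Inputs were not analyzed here as lists of their own. Because q-value limits differed, counts of the factors do not compare their binding.

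Summit fragments were rebuilt as the whole numbers that gave both the deposited fold and the -log10 p-value (within 0.001, for at least 99.9% of peaks in each list). Peaks were joined to RefSeq gene bodies, with 1 bp of overlap between clones required and clone 4 coordinates kept. Starts were the outer 5′ end or the start in the RefSeq promoter table, which held 30 of the 36 genes, with strand. LMO2, CBFB, SPI1, FLI1, NFE2 and PRDM16 were not in it, and their peaks have no direction here. Exons and introns were not annotated here, and no peak sequence was read. The PLAG1 consensus was searched with a spacer of 6 to 8 bases. Python 3.11.15, numpy 2.4.6, pandas 2.3.3, scipy 1.17.1 and matplotlib 3.10.9 were used, and the scripts were tested on simulated data. Described in detail were genes with a co-bound peak and, in each group, the 3 with the largest clone 4 PLAG1-S fold. The other genes are given more briefly, and genes without a reproducible peak are named. Genes, groups and lists were chosen with earlier results of these data known. Alternatives varied the q-value limit, the overlap, the flank, the summit, the clones and the groups. Genes of the further list without a peak are not reported here by name.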

Additional observations from a re-analysis of the deposited data

How the results depend on the processing

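The number of genes with a reproducible PLAG1-S peak stayed between 20 and 31 in all 12 alternatives, against 28, and the number of USF2 or co-bound genes moved more. With a -log10 q-value of at least 10, USF2 remained at 3 genes (GFI1B, EGR1 and LYL1) and co-bound peaks at 2 (GFI1B and LYL1), of which 1 was erythroid-megakaryocyte and 0 myeloid-lymphoid. With peaks of either clone accepted, USF2 lay at 13 genes and co-bound peaks at 10, of which 2 were stem cell and 5 myeloid-lymphoid. Leaving out 1 PLAG1-S library gave 29 to 30 genes with PLAG1-S and 6 co-bound genes either way. Leaving out 1 USF2 library gave 8 to 13 genes with USF2 and 7 to 10 co-bound, with 2 stem cell genes (LYL1 and PRDM16) and 2 to 5 myeloid-lymphoid genes, and the highest values came without the USF2 library of clone 5. The myeloid-lymphoid co-bound count was 1 with 50% reciprocal overlap between clones and 0 with summits within 100 bp. Pairing the libraries within each clone (a replicate block, averaged over the clones) gave 2 stem cell and 3.5 myeloid-lymphoid co-bound genes. PLAG1-S lay at 9 stem cell genes when only peaks within 3 kb of a gene end were counted, and at 9 stem cell and 10 erythroid-megakaryocyte genes when GATA2, TAL1, LMO2, LDB1 and FLI1 changed group. Over RefSeq genes of any type, the background shares were 26.8% for PLAG1-S, 5.03% for USF2 and 4.80% for co-bound peaks. In an alternative chosen after seeing the data, peaks nearest to an end of another coding gene were left out, which gave 26 genes with PLAG1-S and 5 co-bound, without GFI1B. For most of these settings the share over all protein-coding genes was not computed, so the counts are not compared with a background. The background moves with the setting: USF2 lay at 25.3% of all protein-coding genes in clone 4 and 13.6% in clone 5, against 10.3% for reproducible peaks. The causes were not tested beyond these settings.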

Other observations

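The wide USF2 peak over EGR1 was compared with the widest USF2 peaks of the whole lists, a choice made after its width was seen. Of 9338 USF2 peaks in clone 4, 48 were wider than 1000 bp, as were 34 of 4369 in clone 5. Of the 15 widest in clone 4, 7 lay over a protein-coding gene and 8 over none, 9 overlapped a USF2 peak of clone 5, and 11 met PLAG1-S in clone 4. Of the 15 widest in clone 5, 8 lay over a protein-coding gene and 7 over none, 6 overlapped a USF2 peak of clone 4, and 9 met PLAG1-S in clone 5.

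Peaks in 1 clone only made up 35.0% of the PLAG1-S peaks at the 36 genes in clone 4 and 25.2% in clone 5, against 42.9% and 27.4% of the whole lists. For USF2 they made up 72.4% and 38.5%, against 74.2% and 44.3%. PLAG1-S had 49 such peaks at 18 genes in clone 4 (median fold 4.63) and 32 at 11 genes in clone 5 (4.57). USF2 had 21 at 12 genes in clone 4 (3.88) and 5 at 3 genes in clone 5 (3.97). At RUNX3 they included, in clone 4, a PLAG1-S peak 84 bp before its start, at 5.26 fold from 24 fragments, and stronger ones inside the gene (6.88 and 6.67 fold).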
